A study of Homo sapiens with 12 samples.

Results

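Collagens are extracellular matrix proteins in which 3 chains wind into a triple helix, and each chain type is encoded by a gene of its own. Fibrillar collagens build the fibrils of connective tissue, type IV collagen forms the sheet of the basement membrane, type VI forms beaded filaments, fibril-associated collagens decorate other fibrils, and transmembrane collagens stay anchored in the cell surface. Carcinoma cells both make collagens and degrade them when they cross a basement membrane.

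The collagen genes were taken as the features of the deposited expression table whose name is COL, a number, A and a number, and nothing else. This gave 50 of 24331 features, namely 44 genes of the main chromosomes and 6 further entries of COL11A2 on alternative haplotypes of chromosome 6, which were listed at 0 in every library. Of the 44 genes, 13 had a mean of at least 0.5 FPKM over the 6 WT libraries, the limit used to describe a gene in depth. FPKM gives fragments per length of transcript and per number of mapped fragments, so levels can be compared between genes. COL9A2 at 0.691 FPKM lay just inside the limit and COL17A1 at 0.470 FPKM just outside it.

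The samples were MDA-MB-231 cells, a human triple-negative breast cancer line with mesenchymal features, either wild type (WT) or with the labelled genotype KO (CRE deleted), called ΔCRE here, in which CRISPR/Cas9 had removed NFAT and NF-κB binding sites of the core-regulatory element in the ETS1 promoter. Cells of each genotype were stimulated with PMA, which activates protein kinase C, and Ionomycin, a calcium ionophore, and were collected after 0, 6 and 24 h, with 2 libraries in each of the 6 groups. The sources used here do not say how many clones the ΔCRE libraries came from, so an effect of the deletion and a difference of a clone cannot be told apart. The library labelled ΔCRE 0 h replicate 1 stood apart: its replicate r across features was 0.869, against between 0.981 and 0.986 in the other groups, and it was shown apart and left out of the fits. The other 11 libraries were compared with limma on log2(FPKM + 1) over 12137 features, and a difference was called at an adjusted p under 0.05 over all of them. ETS1 itself was 142.2 FPKM on average in WT and 62.5 FPKM in ΔCRE cells at 6 h, and 37.9 and 30.0 FPKM at 24 h, and the line markers VIM and CD44 summed to between 1632 and 2709 FPKM in these 11 libraries. The markers of luminal epithelium (ESR1, PGR, EPCAM, CDH1 and ERBB3) summed to at most 4.38 FPKM, and those of fibroblasts to at most 3.07 FPKM, with DCN and LUM listed at 0.

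Stretches of promoter are shown because they belong to the genes on which the results turn. COL4A1 and COL4A2 lie head to head on chromosome 13, and the stretch shown lies between their features in the expression table. In the GENCODE annotation COL4A2 starts at 110958159, before the end of COL4A1 at 110959504, so the annotated genes overlap. COL7A1 and COL27A1 were called in opposite directions in ΔCRE cells at 6 h. Capitals mark the GC box, GGGCGG, on either strand. They also mark the CCAAT box. The first stretch was read from GRCh37, the same build as hg19, chr13:110959505-110959604 on the forward strand, and holds no annotated exon.
COL4A1-COL4A2: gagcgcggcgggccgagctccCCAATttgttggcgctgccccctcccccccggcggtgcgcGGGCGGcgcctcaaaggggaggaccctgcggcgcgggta
The next windows are the 250 bases before the RefSeq start, on the strand of the gene. They match GRCh37 exactly once, at chr3:48632763-48633012 (reverse strand) and chr9:116917567-116917816 (forward strand), and hold no annotated exon.
COL7A1: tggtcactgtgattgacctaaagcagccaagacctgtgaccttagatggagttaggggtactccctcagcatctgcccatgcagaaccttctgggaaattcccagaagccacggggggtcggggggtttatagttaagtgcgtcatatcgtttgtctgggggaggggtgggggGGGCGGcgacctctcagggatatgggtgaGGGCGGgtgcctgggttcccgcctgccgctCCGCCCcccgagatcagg
COL27A1: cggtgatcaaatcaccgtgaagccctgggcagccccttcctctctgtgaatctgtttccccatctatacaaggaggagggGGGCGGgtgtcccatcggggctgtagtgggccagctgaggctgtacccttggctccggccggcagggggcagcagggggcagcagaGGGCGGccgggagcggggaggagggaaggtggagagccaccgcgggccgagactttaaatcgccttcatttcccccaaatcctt
Of the 13 genes, 10 were found by symbol in the RefSeq promoter table (GRCh38.p14). Windows of 250 bases were searched on both strands for each motif. The GC box was present in 9 of the 10 and in 42.6% of all 35116 promoters. COL4A1 and COL4A2 share a GC box, which is counted for both. The 10 windows had a G and C content of 60.8% to 88.4%, and its part in the count was not tested. The CCAAT box was present in COL4A1 and COL4A2, whose windows overlap, and in 32.0% of all promoters. The ETS consensus, searched as CCGGAAGT, was in 0 of the 10 windows, against 3.42% of all promoters. For the AP-1 site, searched as TGANTCA, the values were 0 of 10 and 6.57%. At shares as low as 3.42% and 6.57%, 0 matches in 10 windows would be common for any promoters. Only exact matches to each motif within the 250 bases were counted. The ETS and AP-1 counts therefore cannot show whether the collagen promoters lack such sites.

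MDA-MB-231 cells expressed few collagen chains at a high level. In WT cells 6 of the 44 genes were at a mean of 10 FPKM or more, 5 between 1 and 10, 2 between 0.5 and 1, 7 between 0.1 and 0.5, and 24 below 0.1, of which 7 were listed at 0 in all 6 WT libraries. In order of the WT mean the leading genes were COL13A1 (87.7 FPKM), COL4A2 (47.2), COL6A1 (30.0), COL6A2 (26.5), COL4A1 (20.6) and COL18A1 (20.2). These means span the 3 time points, over which most of the genes changed, so neighbours such as COL6A1 and COL6A2 or COL4A1 and COL18A1 changed places between time points. COL13A1 encodes a transmembrane collagen, COL4A1 and COL4A2 the main chains of basement membranes, COL6A1 and COL6A2 chains of type VI collagen, and COL18A1 the precursor of endostatin. COL13A1 with the type IV and type VI pairs made up between 81.6% and 84.7% of the summed collagen FPKM in the WT libraries and between 86.0% and 87.9% in the 5 ΔCRE libraries of the fit.

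The interstitial collagens typical of fibroblasts were nearly absent. COL1A2 and COL3A1, chains of type I and type III collagen, did not exceed 0.0133 and 0.0449 FPKM in any of the 11 libraries. COL1A1, the partner of COL1A2 in type I collagen, was between 0.720 and 1.61 FPKM. It was called in 0 of the 8 comparisons. Among fibrillar collagens COL5A1 (7.36 FPKM), a chain that starts the assembly of collagen fibrils, and COL27A1 (2.98 FPKM) had the highest WT means.

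Most of the expressed collagens changed in WT cells after stimulation, in both directions. No unstimulated libraries are listed at 6 or 24 h, so stimulation and time in culture cannot be told apart. Between 0 and 6 h, 9 of the 13 genes were called, 6 higher and 3 lower, against 42.8% of all features (22.2% higher and 20.6% lower). Between 0 and 24 h, 11 were called, 3 higher and 8 lower, against 53.3% of all features (26.3% higher and 26.9% lower). With ΔCRE 0 h replicate 1 in the model these counts were 4 and 5. COL7A1 and COL27A1 rose most by 6 h, COL13A1, COL5A1 and COL8A1 fell at both times, and the type IV pair rose and then fell below its starting level. The median log2 fold change of the 13 genes was −0.02 at 6 h and −0.60 at 24 h, and that of all features −0.01 at both times. The comparisons with 0 h share the WT 0 h libraries.

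COL7A1, the chain of the anchoring fibrils that fix the basement membrane to the tissue below, was 0.952 and 0.881 FPKM in the WT libraries at 0 h, 5.48 and 5.14 FPKM at 6 h, and 1.69 and 1.68 FPKM at 24 h. The 6 h libraries were above all others and the 24 h libraries still above those at 0 h. Its mean at 6 h was 5.79 times that at 0 h (log2 fold change 1.72, standard error 0.076, limma adjusted p = 1.0e-06), and 1.84 times at 24 h (log2 fold change 0.49, limma adjusted p = 9.2e-04). COL27A1, a fibrillar collagen known from developing cartilage, was 1.34 and 1.47 FPKM at 0 h, 4.63 and 3.95 FPKM at 6 h, and 3.39 and 3.12 FPKM at 24 h. Both later pairs lay above the 0 h pair. Its mean was 3.06 times the 0 h mean at 6 h (log2 fold change 1.14, standard error 0.10, limma adjusted p = 5.3e-05) and 2.32 times at 24 h (log2 fold change 0.82, limma adjusted p = 2.3e-04).

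The type IV pair moved up and down together. COL4A1 was 19.1 FPKM in both WT libraries at 0 h, 35.8 and 33.0 FPKM at 6 h, and 8.30 and 8.28 FPKM at 24 h. COL4A2 was 51.0 and 47.2 FPKM at 0 h, 65.7 and 60.6 FPKM at 6 h, and 29.6 and 29.0 FPKM at 24 h. For both genes the groups did not overlap at any pair of times. The log2 fold change was 0.82 for COL4A1 and 0.36 for COL4A2 at 6 h against 0 h (adjusted p = 1.4e-05 and 0.0027, limma), and −1.11 and −0.73 at 24 h against 0 h (adjusted p = 2.2e-06 and 4.4e-05, limma). The 2 features are 134 bases apart in the table, and COL4A2 shares its locus with the antisense entry COL4A2-AS1.

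The type VI chains separated at 24 h. COL6A1 was 28.0 and 24.4 FPKM at 0 h, 44.4 and 41.9 FPKM at 6 h, and 20.9 and 20.4 FPKM at 24 h in WT cells, and COL6A2 was 20.0 and 17.7, then 31.0 and 28.8, then 32.7 and 29.0 FPKM. Both rose by 6 h (log2 fold change 0.70 and 0.64, adjusted p = 1.9e-04 and 5.7e-04, limma). At 24 h COL6A1 was below its level at 0 h (−0.33, adjusted p = 0.0074, limma), whereas COL6A2 was above it (0.68, adjusted p = 3.0e-04, limma). COL6A3, the third chain of classical type VI collagen, was far lower, between 0.219 and 0.396 FPKM in the WT libraries.

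Since ratios within a library do not depend on how libraries are scaled, the ratio of partner chains was computed. The COL4A1 to COL4A2 ratio was 0.374 and 0.404 in the WT libraries at 0 h, 0.545 and 0.544 at 6 h, and 0.280 and 0.286 at 24 h. In ΔCRE cells it was 0.428 in 0 h replicate 2, 0.546 and 0.555 at 6 h, and 0.339 and 0.359 at 24 h. Thus in both genotypes the 6 h libraries were highest and the 24 h libraries lowest. The COL6A1 to COL6A2 ratio was between 1.16 and 1.49 in the 7 libraries at 0 and 6 h and between 0.609 and 0.704 in the 4 libraries at 24 h, without overlap. These ratios are given as a description, with no test.

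**Figure D1:**
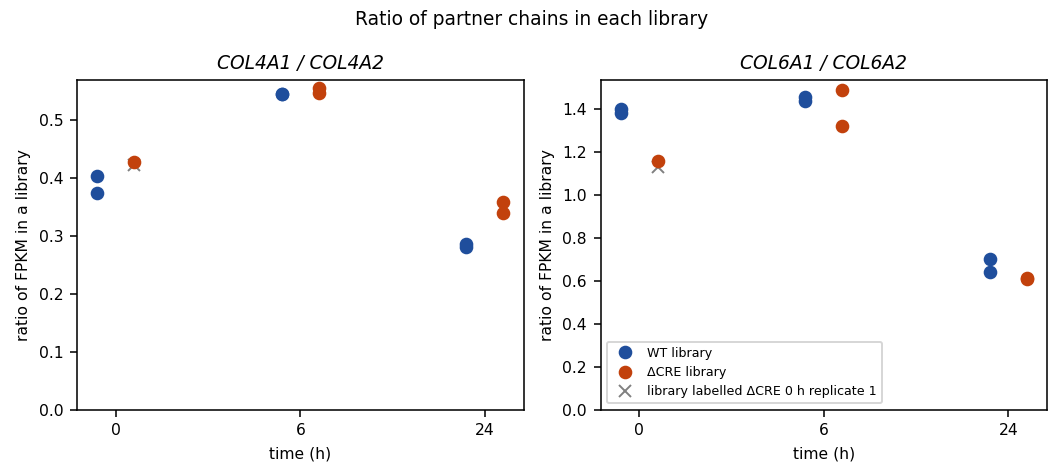
Ratio of the FPKM of partner chains within each library (y axis, from 0) by hours of stimulation (x axis), for COL4A1 over COL4A2 (left) and COL6A1 over COL6A2 (right). Each point is a library and crosses mark the library labelled ΔCRE 0 h replicate 1; at 24 h the COL6A1 to COL6A2 ratio is at most 0.704, below every other library.

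The genes that fell after stimulation belong to several classes. COL13A1 was 130.0 and 120.6 FPKM in WT cells at 0 h, 87.9 and 77.8 FPKM at 6 h, and 56.7 and 52.9 FPKM at 24 h, without overlap between times (log2 fold changes −0.59 and −1.18 for 6 and 24 h, adjusted p = 9.0e-04 and 1.6e-05, limma). COL5A1 was 11.7 and 11.2 FPKM at 0 h, 7.74 and 6.61 FPKM at 6 h, and 3.41 and 3.47 FPKM at 24 h, where its mean was 30.0% of that at 0 h (−1.49, adjusted p = 2.2e-06, limma). COL8A1, a short-chain collagen known from vessel walls and the cornea, was 1.62 and 1.48 FPKM at 0 h and between 0.652 and 0.779 FPKM later (−0.52 at 6 h and −0.60 at 24 h, adjusted p = 9.8e-04 and 3.3e-04, limma). All of these genes were lower at each later time than in both libraries at 0 h. COL12A1, a fibril-associated collagen, and COL18A1 fell later, with log2 fold changes of −0.12 and −0.14 at 6 h (adjusted p = 0.33 and 0.32, limma) and −0.71 and −0.61 at 24 h (adjusted p = 3.4e-04 and 0.0014, limma). COL9A2, a fibril-associated collagen of cartilage, was 0.538 and 0.967 FPKM in WT cells at 0 h, 0.518 and 0.427 FPKM at 6 h, and 0.994 and 0.700 FPKM at 24 h. It was lowest at 6 h but was called in 0 of the 8 comparisons, the nearest being 24 h against 6 h (0.32, adjusted p = 0.082, limma). In ΔCRE cells it was 0.324 and 0.446 FPKM at 6 h, overlapping with WT, and 0.583 and 0.595 FPKM at 24 h, below both WT libraries (−0.21, adjusted p = 0.43, limma). COL8A1 shares its locus of 624324 bases with 4 other features, which makes its level less certain. COL18A1 and COL27A1 also share their loci with other features.

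From 6 to 24 h the expressed collagens declined in both genotypes. In WT cells 9 of the 13 genes fell and 0 rose, against 46% of all features called, 24.9% that fell and 21.1% that rose. In ΔCRE cells 9 fell and 0 rose, against 48.3% of all features called, 25.8% that fell and 22.5% that rose. The split over all features depended on the scaling: rises were 45.9% of the calls in WT and 46.6% in ΔCRE cells as deposited, and 65.6% and 62.3% after scaling to TPM, under which 8 collagen genes were still called in each genotype. The same 8 genes fell in both, namely COL13A1, COL4A2, COL6A1, COL4A1, COL18A1, COL5A1, COL12A1 and COL7A1, while COL27A1 was called in WT cells (−0.31, adjusted p = 0.033, limma) and COL8A1 in ΔCRE cells (−0.24, adjusted p = 0.034, limma). COL4A1 fell most, to 24.1% of its 6 h mean in WT and 28.3% in ΔCRE cells (log2 fold change −1.93 and −1.73). The median log2 fold change of the 13 genes was −0.59 in WT and −0.61 in ΔCRE cells, and that of all features −0.02 in both. The difference between genotypes in this change was called for 0 of the 13 genes in limma's interaction test, 2 at an unadjusted p under 0.05, against 0.0659% of all features called. The largest was 0.39 for COL27A1 (standard error 0.14, adjusted p = 0.63, limma), and a test that misses the threshold does not show that the changes were equal. The call of COL27A1 in WT cells was lost with TPM scaling (−0.24, adjusted p = 0.142), without a filter (0.051), with a pseudocount of 0.1 (0.0594), and without WT 6 h replicate 1 (−0.22, 0.182), WT 24 h replicate 1 (0.069) or WT 24 h replicate 2 (0.145). That of COL8A1 was lost with TPM (0.0534) and without any of the 4 ΔCRE libraries compared (0.0695 to 0.099), and that of COL18A1 in WT cells without WT 6 h replicate 1 (−0.38, 0.0527). With all 12 libraries in the model, 3 of the genes were called in WT and 4 in ΔCRE cells with unaltered fold changes. The calls of COL13A1 (adjusted p = 0.141 in WT and 0.105 in ΔCRE cells, limma), COL4A2 (0.115 and 0.0875), COL5A1 (0.17 and 0.136) and COL12A1 (0.271 and 0.228) were lost in both genotypes, those of COL18A1 (0.0991) and COL27A1 (0.28) in WT and that of COL8A1 (0.645) in ΔCRE cells.

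**Figure D2:**
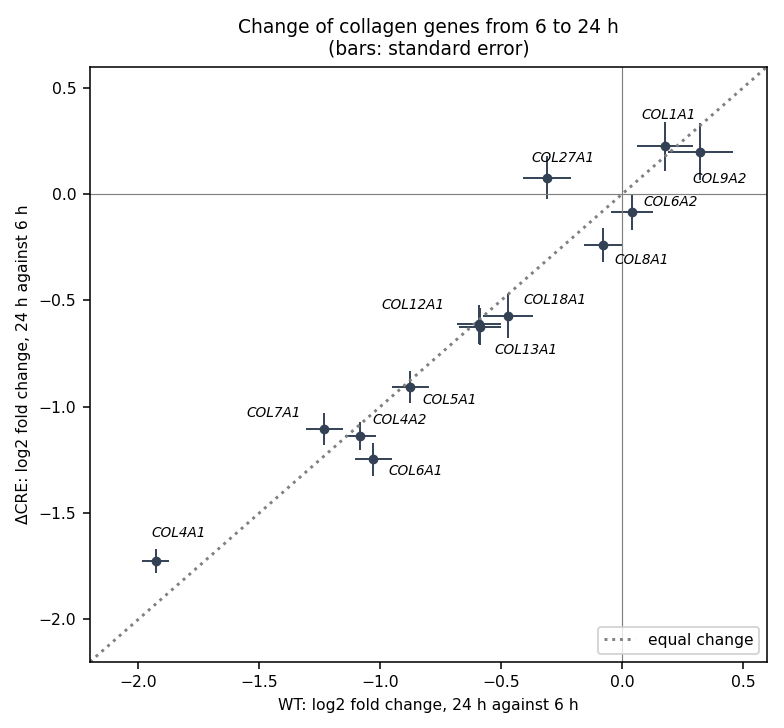
Log2 fold change from 6 to 24 h of the 13 collagen genes in WT cells (x axis) and ΔCRE cells (y axis), on the log2(FPKM + 1) scale, with standard errors as bars and a dotted line of equal change. COL4A1 lies lowest (−1.93 and −1.73). COL27A1 (−0.31 and 0.08) and COL6A2 (0.04 and −0.08) are on opposite sides of 0 in the 2 genotypes, but neither was called for a difference in this change.

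The comparison of ΔCRE with WT cells asks which collagens differ when the ETS1 promoter element is missing. COL27A1 and COL12A1 were lower, and COL7A1 and COL13A1 higher, in ΔCRE cells at both 6 and 24 h. At 6 h these were the 4 genes called among the 13, 2 in each direction, against 9.2% of all features (3.32% higher and 5.88% lower). At 24 h 5 were called, 3 higher and 2 lower, against 5.88% of all features (2.15% higher and 3.73% lower), with COL4A1 as the added gene. The 4 genes had the same direction at both times, but the 6 h and 24 h libraries share their cell lines and the fit shares its estimate of the spread. The 4 libraries compared did not overlap for 10 of the 13 genes at 6 h and 11 at 24 h, against 54.1% and 51.4% of all features. At 6 h 5 were above WT and 5 below (28.4% and 25.7% of all features), and at 24 h 5 above and 6 below (26.4% and 25% of all features). The median log2 fold change of the 13 genes was 0.02 at 6 h and −0.03 at 24 h, and that of all features 0.01 at both times. In bulk RNA, fewer cells that express a gene and less RNA of it per cell cannot be told apart.

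COL27A1 was 4.63 and 3.95 FPKM in WT and 1.34 and 1.51 FPKM in ΔCRE cells at 6 h, and 3.39 and 3.12 against 1.73 and 1.399 FPKM at 24 h. At 6 h both ΔCRE libraries were near the WT level at 0 h, but above the 0.474 FPKM of ΔCRE 0 h replicate 2. The change from 0 to 6 h in ΔCRE cells was not tested. At neither 6 nor 24 h did the genotypes overlap. The ΔCRE mean was 33.2% of WT at 6 h (log2 fold change −1.12, standard error 0.10, adjusted p = 5.2e-04, limma) and 48.0% at 24 h (−0.73, standard error 0.10, adjusted p = 0.0058, limma). COL12A1 was 3.78 and 3.77 FPKM in WT and 1.79 and 1.35 FPKM in ΔCRE cells at 6 h, and 2.16 and 2.18 against 0.650 and 0.696 FPKM at 24 h. Here the ΔCRE mean was 41.5% of WT at 6 h and 31.0% at 24 h (log2 fold change −0.90 and −0.92, standard error 0.092, adjusted p = 0.0010 and 0.0014, limma). COL27A1 and COL12A1 lie on chromosomes 9 and 6, in 10 Mb segments where the median over features at 6 h was 0.09 and −0.03, respectively.

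COL7A1 was 5.48 and 5.14 FPKM in WT and 11.3 and 11.2 FPKM in ΔCRE cells at 6 h, and 1.69 and 1.68 against 5.03 and 4.42 FPKM at 24 h. The genotypes were far apart at both times, and the ΔCRE mean was 2.13 times the WT mean at 6 h and 2.80 times at 24 h (log2 fold change 0.96 and 1.09, standard error 0.076, adjusted p = 2.9e-04 and 2.1e-04, limma). The 99 features of its segment on chromosome 3 had a median of −0.01 at both times. COL13A1 was 87.9 and 77.8 FPKM in WT and 122.1 and 123.4 FPKM in ΔCRE cells at 6 h, and 56.7 and 52.9 against 85.5 and 73.6 FPKM at 24 h. Its ΔCRE mean was 1.48 times the WT mean at 6 h and 1.45 times at 24 h (log2 fold change 0.56 and 0.53, adjusted p = 0.0065 and 0.012, limma). COL13A1 lies on chromosome 10 (71561644 to 71718904) in a segment whose 68 features also had positive medians, 0.35 at 6 h and 0.37 at 24 h, and the part of the segment in the result was not tested. COL5A1 lay the other way from its surroundings on chromosome 9, with log2 fold changes of 0.14 and 0.11 (adjusted p = 0.33 and 0.49, limma) in a segment of 144 features with medians of −0.25 and −0.28. COL4A1 was 8.30 and 8.28 FPKM in WT and 9.962 and 9.999 FPKM in ΔCRE cells at 24 h (0.24, adjusted p = 0.046, limma). COL18A1 was lower in ΔCRE cells without overlap at both 6 and 24 h but was not called (log2 fold change −0.32 and −0.42, adjusted p = 0.10 and 0.055, limma).

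**Figure D3:**
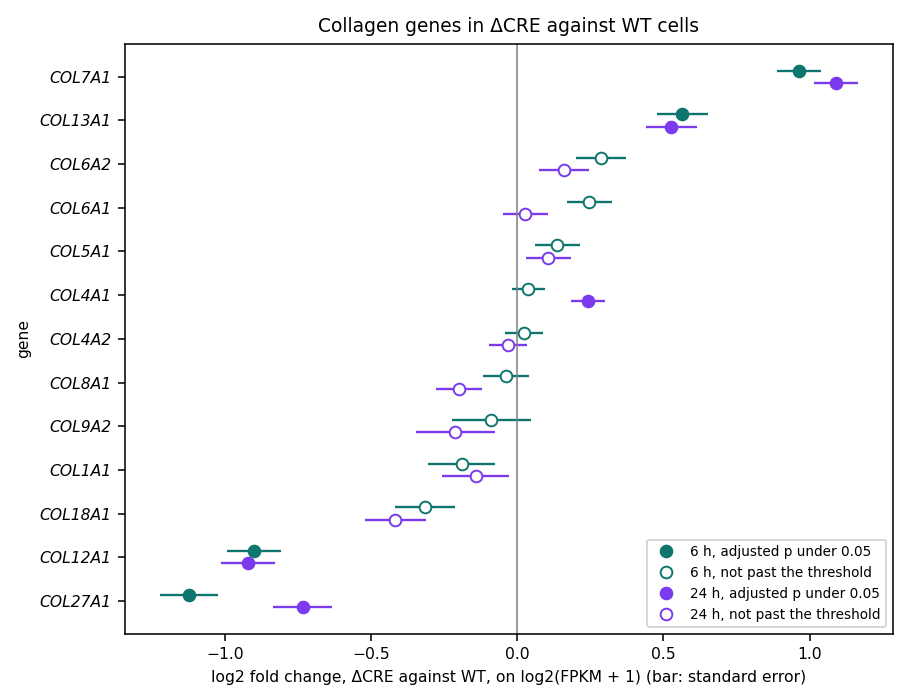
Log2 fold change of the 13 collagen genes in ΔCRE against WT cells at 6 and 24 h (x axis, on log2(FPKM + 1)), ordered by the value at 6 h, with standard errors as bars and filled points at an adjusted p under 0.05 from limma. COL7A1 (0.96 and 1.09) and COL27A1 (−1.12 and −0.73) lie at the ends at 6 h.

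These calls differed in how far they rested on single libraries. With all 12 libraries in the model, COL7A1 was still called at both times and COL27A1 at 6 h, while the fold changes were unaltered and COL12A1 (adjusted p = 0.497 at 6 h and 0.649 at 24 h, limma), COL13A1 (0.689 and 0.995), and at 24 h COL27A1 (0.208) and COL4A1 (1.0) were not called. COL13A1 at 6 h was lost without WT 6 h replicate 2 (log2 fold change 0.48, adjusted p = 0.0564) or ΔCRE 6 h replicate 2 (0.56, 0.0534), and at 24 h without WT 24 h replicate 1 (0.57, 0.0638), WT 24 h replicate 2 (0.48, 0.0895) or ΔCRE 24 h replicate 1 (0.42, 0.0672). COL27A1 at 24 h was lost without WT 24 h replicate 1 (−0.69, 0.0579). COL4A1 at 24 h was lost without any 1 of 10 libraries (0.0566 to 0.211), with TPM (0.0801) and without the trend in eBayes (0.0612). With a separate fit per time point COL13A1 (0.0925), COL27A1 (0.0656) and COL4A1 (0.139) fell short at 24 h.

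At 0 h a single ΔCRE library remained in the fit and was assumed to vary like the other groups. In it COL12A1 was 2.25 FPKM against 4.32 and 4.05 FPKM in WT, COL27A1 was 0.474 against 1.34 and 1.47 FPKM, and COL7A1 was 1.87 against 0.952 and 0.881 FPKM. Each lay outside the WT range in the direction seen at 6 and 24 h. COL4A1 was 25.9 FPKM against 19.1 FPKM in both WT libraries. These 4 genes were called (log2 fold changes −0.68, −0.71, 0.58 and 0.42, adjusted p = 0.027, 0.031, 0.022 and 0.025, limma), against 1.68% of all features. With all 12 libraries, where the mean includes ΔCRE 0 h replicate 1, none of the 4 was called (adjusted p between 0.13 and 0.631, limma) and COL4A1 turned to a lower level in ΔCRE cells (log2 fold change −0.22). In 11 libraries none was called without WT 0 h replicate 1 (adjusted p between 0.0613 and 0.0914) or without WT 0 h replicate 2 (between 0.0696 and 0.11), or without either WT 24 h library (at most 0.0639). COL12A1 and COL4A1 were also lost without either ΔCRE 24 h library (0.0524 to 0.0543), COL12A1 without either WT 6 h library (0.0634 and 0.0633), and COL27A1 without either ΔCRE 6 h library (0.0507 and 0.0508). COL13A1 was 171.3 FPKM against 130.0 and 120.6 FPKM (0.45, adjusted p = 0.085, limma).

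Collagens below the limit were not in the test, and 4 of them, chosen after their values were seen, are described from a fit without a filter. COL6A3 was 0.303 and 0.291 FPKM in WT and 0.592 and 0.535 FPKM in ΔCRE cells at 6 h, and 0.396 and 0.338 against 1.02 and 0.897 FPKM at 24 h. It was thus higher in ΔCRE cells (log2 fold change 0.27 and 0.52, adjusted p = 0.0162 and 0.0021, limma). In the fit with the filter, its partners COL6A1 and COL6A2 were not called at either time (adjusted p between 0.080 and 0.89, limma). Both partners still lay above WT without overlap at 6 h (log2 fold change 0.25 and 0.29). At 24 h COL6A2 lay above WT without overlap (0.16), while COL6A1 overlapped with WT (0.03). Whether COL6A3 differed from its partners in this was not tested. COL17A1, a transmembrane collagen of the hemidesmosome, was 0.486 and 0.278 FPKM in WT and 0.144 and 0.128 FPKM in ΔCRE cells at 6 h, and 0.655 and 0.715 against 0.214 and 0.291 FPKM at 24 h. The genotypes did not overlap, and the log2 fold change was −0.28 for 6 h (limma adjusted p = 0.079) and −0.43 for 24 h (limma adjusted p = 0.026). The fibril-associated COL16A1 was called at 6 h only (−0.19, adjusted p = 0.034, limma, against 0.08, 0.29 at 24 h, the difference not being tested), and COL9A3 was called at neither time. At these levels the scale of log2(FPKM + 1) understates changes.

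Of 35 genes that modify, fold, secrete, process or cross-link collagen, 28 could be tested. In WT cells 10 rose and 5 fell by 6 h (53.6% of the 28, against 42.8% of all features), and 14 rose and 6 fell by 24 h (71.4%, against 53.3%). With all 12 libraries in the model, 2 and 1 of them were called. The largest changes at 6 h were in LEPREL1, a prolyl 3-hydroxylase (log2 fold change 1.23), LOXL1, a lysyl oxidase (−0.90), SPARC, a collagen-binding protein (−0.78), PPIB, a prolyl isomerase of the endoplasmic reticulum (0.72), and P4HA2, a subunit of prolyl 4-hydroxylase (0.65). At 24 h they were in LOXL2, another lysyl oxidase (−0.96), SPARC (−0.93), P4HA2 (0.89), LEPREL1 (0.85) and P4HA1, the other main subunit of its kind (0.77). At 24 h P4HA1, P4HA2 and LEPREL1 were thus higher in WT cells, whereas 8 of the 13 collagen genes were lower.

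Between genotypes 3 of the 28 were called at each time (10.7%), a share near that of all features at 6 h (9.2%) and set against 5.88% at 24 h. At 6 h they were P4HA1 (0.39) and LEPREL1 (0.34) higher and LOXL2 (−0.35) lower, and at 24 h P4HA1 (0.39) higher and LOXL2 (−0.38) and CRTAP, a partner of prolyl 3-hydroxylase (−0.37), lower. P4HA1 was 14.7 FPKM on average in WT and 19.5 FPKM in ΔCRE cells at 6 h, and LOXL2 49.5 and 38.7 FPKM. P4HA1 lies in the same segment of chromosome 10 as COL13A1, whose 68 features had medians of 0.35 at 6 h and 0.37 at 24 h. Its log2 fold changes were thus near those of its surroundings, and the part of the segment in them was not tested. With a separate fit per time point or all 12 libraries 0 of the 28 were called at either time. Of 9 collagen receptor genes 4 could be tested, and 0 were called between genotypes at 6 or 24 h, against the same 9.2% and 5.88% of all features, while ITGA2, the alpha subunit of a collagen-binding integrin, rose in WT cells (log2 fold change 1.45 by 6 h and 1.87 by 24 h). Of 4 collagenase genes 3 could be tested, with 2 called at 6 h and 3 at 24 h against 9.2% and 5.88% of all features. MMP13 and MMP14 were lower in ΔCRE cells at 6 h (−1.63 and −1.09) and 24 h (−0.97 and −0.80), whereas MMP1 was higher at 24 h (0.73).

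The library labelled ΔCRE 0 h replicate 1 had other collagens beside the usual leading ones. COL13A1 was still at 108.3 FPKM there, and with the type IV and type VI pairs made up 58.5% of its summed collagen FPKM. COL17A1 was at 28.9 FPKM, COL1A1 at 18.5, COL3A1 at 18.0 and COL1A2 at 16.1 FPKM there, against at most 0.715, 1.61, 0.0449 and 0.0133 FPKM in the other 11 libraries. In all, 19 of the 44 genes were above and 5 below every other library, against 40.8% and 24.7% of the features with any value above 0. The count above is thus near the share of all features, and the 44 include genes listed at 0 in every library. Over all features the FPKM of this library summed to 1.42e+06, against 566255 to 651080 in the other 11. Its levels are therefore not on the same scale as theirs. Those below were COL4A2 (23.8 FPKM), COL6A1 (20.1 FPKM, a margin smaller than the last digit given), COL27A1 (0.191), COL8A1 (0.145) and COL4A4 (0.0135). In the same library 7 of 8 fibroblast markers were above all others, with a sum of 96.3 FPKM against 1.05 to 3.07 FPKM, and 8 of 8 gut epithelium markers, with a sum of 1537 FPKM against 1.19 to 2.58 FPKM, of which VIL1, CDX1, CDX2 and GPA33 were listed at 0 in the other 11. Their part in the collagen values was not tested.

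**Figure D4:**
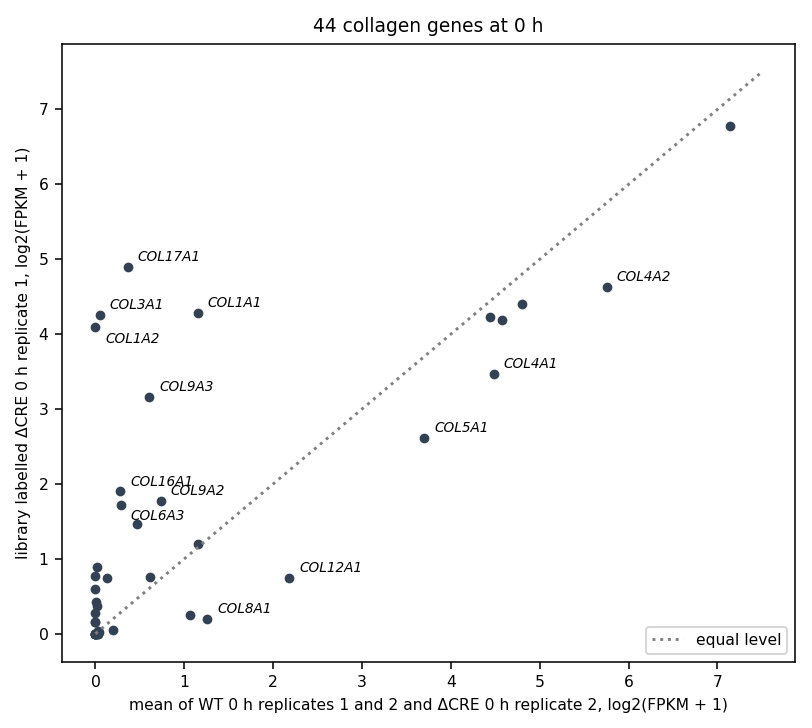
Levels of the 44 collagen genes in the library labelled ΔCRE 0 h replicate 1 (y axis) against the mean of the other 3 libraries at 0 h (x axis), both as log2(FPKM + 1), with a dotted line of equal level and names where the 2 values differ by more than 1. COL17A1, COL3A1, COL1A2 and COL1A1 (16.1 to 28.9 FPKM) lie far above the line, and COL12A1 and COL8A1 below it.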

How the data were processed

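RNA was measured by RNA-sequencing in 12 libraries, 2 biological replicates for each of 6 groups of genotype and time taken from the sample titles. The authors mapped stranded mRNA libraries to hg19 with TopHat, estimated expression with Cufflinks and deposited FPKM values for 24331 features. The annotation, any scaling between libraries and the depth are not given in the sources used here, so no counting interval was computed. The columns read as ΔCRE 6 h and 0 h replicate 2 carry a digit in place of a letter and were matched by the group heading above them.

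Features with a mean of at least 0.5 FPKM over 11 libraries (12137) were tested on log2(FPKM + 1) with limma 3.58.1 in R 4.3.3 (6 groups, eBayes with a trend, Benjamini-Hochberg adjustment). The library labelled ΔCRE 0 h replicate 1 was left out because earlier results had shown it to stand apart. In simulated data of 12137 features, 94.5%, 97.5% and 93.5% of 200 features changed by a log2 value of 1 were recovered for ΔCRE against WT at 6, 24 and 0 h. Of the calls made there, 3.57%, 4.41% and 1.06% were false. Smaller changes were not simulated, so the recovery does not apply to them. They include those of COL13A1, COL4A1 and COL12A1, of COL27A1 at 24 h, of COL7A1 at 6 h and every call at 0 h. The members, lists and tests were chosen with earlier results of these data known. All genes above 0.5 FPKM in WT cells were described, and from other lists at most the 5 largest called changes. Alternatives were a pseudocount of 0.1, a limit of 1 FPKM, no filter, quantile normalization, TPM scaling, a separate fit per time point, all 12 libraries, a block for the replicate number, eBayes with no trend and leaving out each library. P-values set a difference between groups against the spread between replicate libraries, pooled over the groups. Whether that spread includes variation between clones is not known. Promoters came from RefSeq and GRCh37 with GENCODE. Figures used Python 3.11.15.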

Additional observations from a re-analysis of the deposited data

Results flagged for a closer look

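Signals stood out in the library that the comparisons leave out, labelled ΔCRE 0 h replicate 1. COL17A1 at 28.9 FPKM, COL1A1 at 18.5 FPKM, COL3A1 at 18.0 FPKM and COL1A2 at 16.1 FPKM reached 10 FPKM or more there, whereas each stayed under 2 FPKM in the remaining 11 libraries, WT included. The 0 of 13 genes called for a difference between genotypes in the change from 6 to 24 h leaves no other result to look at again, and groups of 2 libraries are too small to test for a sample far from the others.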

How the results depend on the processing

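The alternatives gave the 51 calls of single collagen genes 971 times, of which 882 kept direction and call, 88 kept direction only and 1 turned: COL4A1 at 0 h was −0.22 with all 12 libraries, where ΔCRE 0 h replicate 1 enters. The 12-library fit called 2, 1 and 0 collagen genes for ΔCRE against WT at 6, 24 and 0 h, 4 and 5 for WT 6 h and 24 h against 0 h, and 3 and 4 from 6 to 24 h in WT and ΔCRE cells. Among all features it called 33, 19 and 19 between genotypes at 6, 24 and 0 h (1117, 714 and 204 in 11 libraries), 941 and 1333 for WT 6 h and 24 h against 0 h (5195 and 6463), 689 and 990 from 6 to 24 h in WT and ΔCRE cells (5583 and 5860), and 0 for the interaction (8). For the biosynthesis list it called 0 and 0 between genotypes at 6 and 24 h, and 2 and 1 for WT 6 h and 24 h against 0 h (15 and 20). A separate fit per time point called 313 and 124 features and 0 and 0 genes of that list at 6 and 24 h, and 2 collagen genes at 24 h. Without a filter, which lets in low collagen genes, 8 were called between genotypes at 24 h, 20 for WT 24 h against 0 h, and 14 and 14 from 6 to 24 h. More genes and features were tested in that fit, and their shares called are not given here. These counts therefore cannot be set against all features. The biosynthesis list gave 5 calls at 6 h with TPM and 6 at 24 h with quantile normalization. The interaction gave 18 features with a limit of 1 FPKM, 14 without a filter, 14 with TPM and 5 without trend.

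With the replicate block 7 collagen genes were called between genotypes at 6 h and 7 at 0 h, 9 and 7 genes of the biosynthesis list at 6 and 24 h, and 1815, 1382 and 630 features at 6, 24 and 0 h, with 26 for the interaction. Same-numbered libraries deviated together with r = 0.095 at 6 h and 0.107 at 24 h across features, and with 2 libraries in each group whether the numbers pair the libraries was not established. Leaving out 1 library gave 3 to 4, 2 to 5 and 0 to 3 collagen genes between genotypes at 6, 24 and 0 h, and 7 to 10 for WT 24 h against 6 h. It gave 325 to 1114, 161 to 713 and 116 to 170 features at 6, 24 and 0 h, 2 to 23 for the interaction, and 2 to 4 and 0 to 4 genes of the biosynthesis list at 6 and 24 h. TPM moved the median of all features by more than 0.1 for WT 6 h against 0 h (from −0.01 to −0.12) and for WT 24 h against 6 h (from −0.02 to 0.08), and higher calls went from 51.9% to 34.9% of the calls for WT 6 h against 0 h, from 45.9% to 65.6% and 46.6% to 62.3% from 6 to 24 h in WT and ΔCRE cells, from 36.5% to 24.9% for ΔCRE against WT at 24 h and from all 8 to 85.7% for the interaction. Depth is unknown, and levels under 1 FPKM are the least certain.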
